A study of Mus musculus with 12 samples.

Results

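Interferon-stimulated genes were followed through 12 RNA-seq libraries of C57BL/6 mouse brain cells. The set held 40 genes, taken by gene name from the 55862 entries of the expression table, and all 40 names were found. It was divided by gene family into 11 type I-like genes (the Ifit and Oas families, Isg15 and Usp18), 6 GTPase genes (the Gbp and Irg families) and 23 others, and the division uses family names alone. The study asked how astrocytes change when they are turned into sphere cultures, and set both against progenitors from brain. A-iSC libraries came from astrocyte-derived spheres after 5 days of incubation, P56-NSC and P0-NSC libraries from brain-derived neural progenitor preparations that served as positive controls, and AST libraries from the astrocytes at day 0, the negative control. Each group had 3 libraries. The progenitor groups are told apart only by the prefixes P56 and P0, by convention the postnatal day. No age is stated outright and no allele, transgene or added agent is named for any group. The title of the deposited series speaks of retina and a knockout that no sample label carries. The labels give brain for all samples, and no label tells separate animals or cultures from repeat libraries, so the p-values rest on a spread between libraries that may be purely technical.

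Interferons are secreted proteins that cells make when they sense viral or other foreign nucleic acid. Type I interferons bind the receptor pair Ifnar1 and Ifnar2, and signalling through the kinases Jak1 and Tyk2 then leads to a complex with Stat2 and Irf9 that binds the interferon-stimulated response element, or ISRE, in the promoters of its target genes. Interferon gamma acts through Ifngr1 and Ifngr2 and leads to binding of another element, the gamma-activated sequence, or GAS, and many GTPase genes respond to it. In brain, astrocytes and microglia both carry these receptors, and microglia are the main carriers of several of the sensors that start the response.

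The ISRE is a repeat of GAAA, and stretches with such repeats are printed here because this is the element that the complex is known to bind. Each promoter window ran from 250 bases before to 50 bases after the annotated start, in RefSeq GRCm38.p6, and 30 of the 40 members had a window. An ISRE-like match was taken as 2 copies of GAAA in one direction with 2 bases between them, on either strand, so neighbouring matches may overlap. The stretches read 5′ to 3′ on the strand of the gene, end before the start site, and have the matched bases in capitals, where runs of TTTC are the same motif on the opposite strand. They are from chr19:34583353-34583436 (+ strand) for Ifit3, chr19:34607749-34607832 (+ strand) for Ifit3b, chr19:34640765-34640833 (+ strand) for Ifit1, chr4:156200855-156200916 (- strand) for Isg15, chr5:120907526-120907565 (- strand) for Oas1a, chr8:71537567-71537622 (- strand) for Bst2, chr3:142620584-142620633 (+ strand) for Gbp2, chr3:142559979-142560034 (+ strand) for Gbp3, chr11:58199502-58199551 (+ strand) for Igtp and chr11:48871421-48871470 (- strand) for Irgm1.
Ifit3: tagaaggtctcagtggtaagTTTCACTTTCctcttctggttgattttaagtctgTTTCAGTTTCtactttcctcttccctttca
Ifit3b: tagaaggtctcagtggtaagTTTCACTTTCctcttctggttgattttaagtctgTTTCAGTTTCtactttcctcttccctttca
Ifit1: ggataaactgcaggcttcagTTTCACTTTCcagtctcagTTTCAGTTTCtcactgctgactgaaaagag
Isg15: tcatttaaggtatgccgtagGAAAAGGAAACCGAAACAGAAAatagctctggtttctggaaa
Oas1a: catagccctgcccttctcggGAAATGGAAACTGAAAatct
Bst2: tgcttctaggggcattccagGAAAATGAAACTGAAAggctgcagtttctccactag
Gbp2: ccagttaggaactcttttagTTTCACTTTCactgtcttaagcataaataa
Gbp3: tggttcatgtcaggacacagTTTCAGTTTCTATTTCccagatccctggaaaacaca
Igtp: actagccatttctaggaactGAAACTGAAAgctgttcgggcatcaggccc
Irgm1: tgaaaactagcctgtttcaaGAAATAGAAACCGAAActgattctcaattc

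Ifit3 and Ifit3b, neighbouring copies in the Ifit cluster, shared the printed stretch base for base, although its first match lay 156 bases before the start of Ifit3 and 188 bases before that of Ifit3b. Over the 268 bases that their windows have in common at that offset of 32 bases, 201 were identical, or 75.0%. The matches of Gbp3, Igtp, Irgm1 and Oas1a began within 45 bases of the start. An ISRE-like match was present for 19 of 30 members (63.3%), against 1079 of 27025 genes of the promoter table (3.99%) and 3.66% of the genes tested here. By family, 6 of 9 type I-like genes, 5 of 5 GTPase genes and 8 of 16 others held one, and the windows of Irf7, Irf9, Ifit2, Oasl1, Oasl2 and Cmpk2 were among those without. A GAS-like match, TTCNNNGAA on either strand, was present for 8 of 30 members (26.7%), against 9.55% of the promoter table. Of members called higher in A-iSC against AST in the comparison that follows, 14 of 23 windows held an ISRE-like match, and of members not called, 5 of 7. These matches are a description of letters in one window and say nothing of which factor was bound in these cells.

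**Figure D1:**
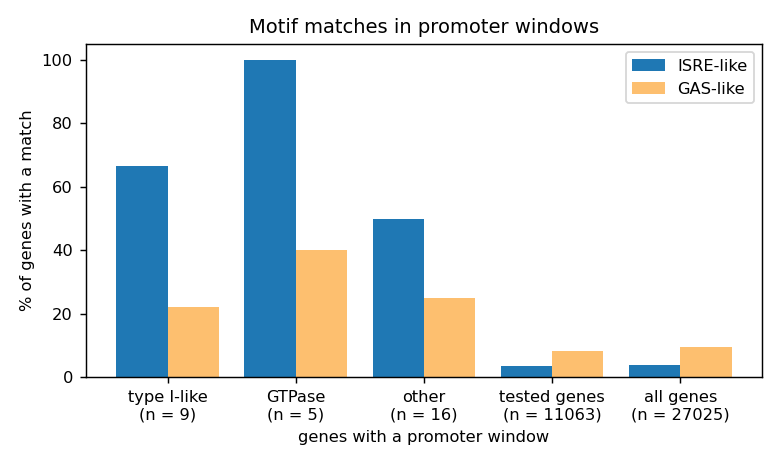
Share of genes (%) whose 300-base promoter window held an ISRE-like (blue) or GAS-like (yellow) match, for 3 families of interferon-stimulated genes, for all tested genes and for all genes of the promoter table, with the number of windows under each label. ISRE-like matches were present in 66.7% of type I-like, 100% of GTPase and 50% of other members, against 3.66% of tested genes and 3.99% of all genes.

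Values are FPKM as the authors deposited them, reads scaled to gene length and library size. Whole reads recovered from FPKM and gene length summed to between 17077780 and 24452419 per library, and a single read of a 1 kb gene counted for 0.0343 to 0.0623 FPKM, which sets the finest step of a low level. Cell type markers were checked as summed FPKM per library. Astrocyte markers reached 1250 to 2526 in A-iSC, 2982 to 3237 in P56-NSC, 258 to 322 in P0-NSC and 159 to 180 in AST, the lowest in the group labelled astrocytes, and neural progenitor markers 1564 to 2096 in A-iSC, 231 to 255 in P56-NSC, 879 to 963 in P0-NSC and 2601 to 3573 in AST. A sum is set by the most abundant markers of a list, and single markers could go the other way. Of 8 neural progenitor markers, 5 were called higher and 3 lower in P0-NSC against AST in the comparisons that follow. In A-iSC against AST, 3 were higher and 2 lower, and in P56-NSC against AST, 2 and 6. Oligodendrocyte markers reached 11000 to 12502 in P56-NSC and at most 125 in A-iSC, 45.8 in P0-NSC and 47.8 in AST, and fibroblast and mural markers 1884 to 2270 in AST and at most 138 in any library of the other groups. Of 8 fibroblast and mural markers, however, 4 were called higher and 3 lower in P0-NSC against AST. In P56-NSC against AST the counts were 4 and 4, and in A-iSC against AST 0 and 5. Among all tested genes, 35.9% were higher and 38.3% lower in P0-NSC against AST. These shares were 37.1% and 37.0% in P56-NSC and 28.1% and 30.8% in A-iSC. Libraries also stood apart within groups: the deviation of a gene from its group mean went with gene length across all tested genes, with Spearman coefficients of 0.328 in A-iSC 3, -0.281 in A-iSC 1, -0.233 in A-iSC 2, -0.450 in AST 2, 0.361 in AST 1 and 0.385 in AST 3. Counts of called members are therefore also given without AST 2 and A-iSC 3.

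Interferon-stimulated genes were at their highest in A-iSC, next highest in AST, and low in both progenitor preparations. The group mean was highest in A-iSC for 34 members, in AST for 5 and in P56-NSC for 1, and the order A-iSC, AST, P56-NSC, P0-NSC held for 28 of 40. Among the 34 were Oas2, Oas3, Oasl1, Mx1, Zbp1 and Iigp1, which reached 1 FPKM in A-iSC libraries alone and so had to be highest there. The summed level of the 40 genes was 2426, 2032 and 1594 FPKM in A-iSC, 166, 140 and 225 FPKM in P56-NSC, 90.8, 61.5 and 77.7 FPKM in P0-NSC, and 1427, 1986 and 1389 FPKM in AST. The sums of A-iSC and AST overlapped, whereas both progenitor groups lay far below. The median member stood at 15.6, 13.1 and 12.4 FPKM in A-iSC, 1.27, 0.997 and 1.85 FPKM in P56-NSC, 0.695, 0.522 and 0.482 FPKM in P0-NSC, and 6.37, 7.0 and 6.54 FPKM in AST, and on this measure no 2 groups overlapped.

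**Figure D2:**
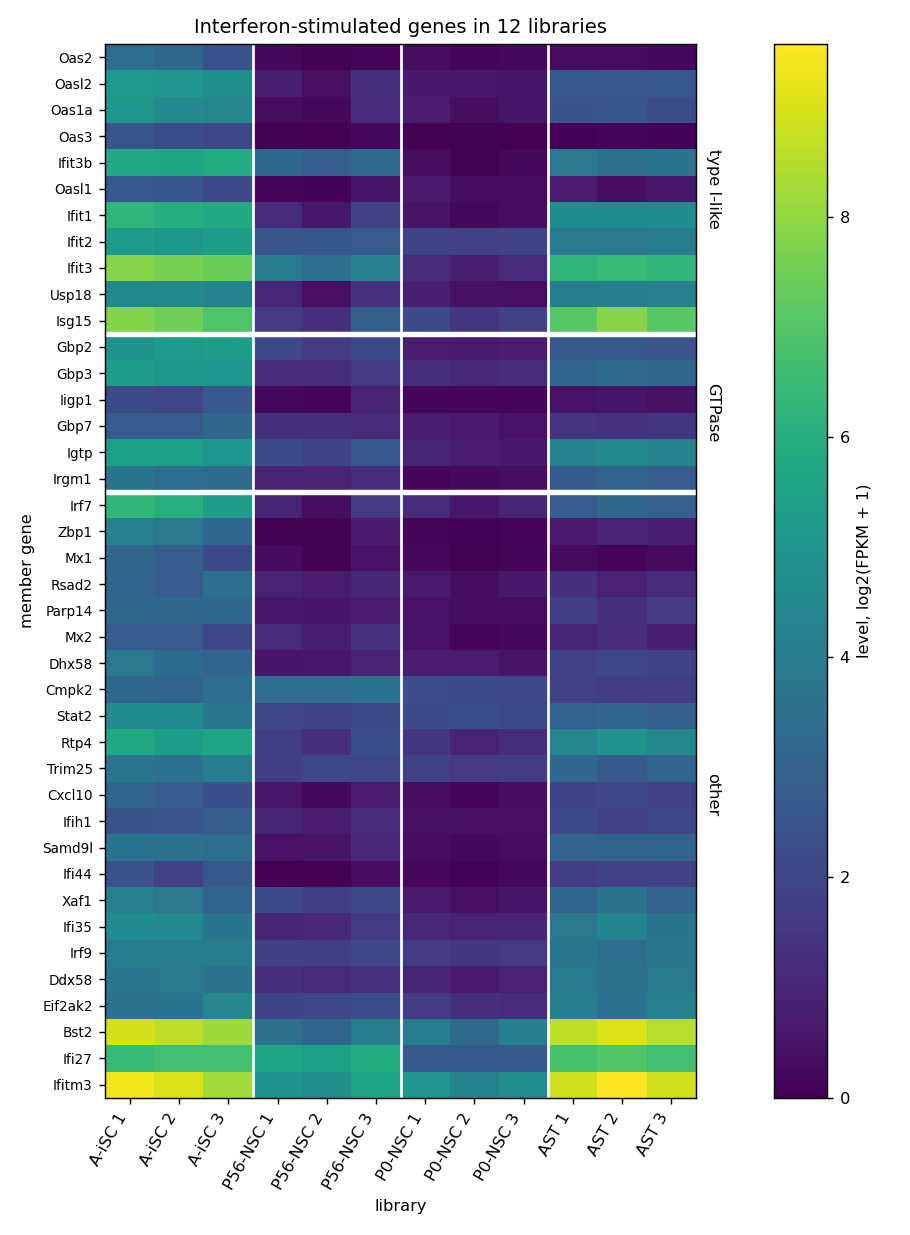
Level of the 40 interferon-stimulated genes as log2(FPKM + 1) in each of the 12 libraries, by family and, within a family, by the change between A-iSC and AST. The median member stood at 12.4 to 15.6 FPKM in A-iSC, 0.997 to 1.85 FPKM in P56-NSC, 0.482 to 0.695 FPKM in P0-NSC and 6.37 to 7.0 FPKM in AST.

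A gene was called when its Benjamini-Hochberg adjusted p, over the 15747 tested genes, was under 0.05 in limma on log2(FPKM + 1). Log2 changes are on that scale, with their standard error, and understate the change of low genes. All 40 members passed the minimum of 1 FPKM in 3 libraries, but Oas2, Oas3, Oasl1, Mx1, Zbp1 and Iigp1 did so through A-iSC libraries alone, so those 6 had to be higher there. In A-iSC against AST, 31 members rose, 0 fell and 9 were not called, where 28.1% of all tested genes were called higher and 30.8% lower. Without the 6, the count was 25 of 34. The median log2 change was 1.36 for the 40 and 1.0 for the 34, against 0.00 for all tested genes. Without AST 2 and A-iSC 3, 31 rose and 1 fell, Eif2ak2 (log2 change -0.49, adjusted p = 0.0224). In P56-NSC against AST, 31 fell and 1 rose (all tested genes: 37.0% lower and 37.1% higher; median log2 change of the members -1.35). In P0-NSC against AST, 34 fell and 1 rose (all tested genes: 38.3% lower and 35.9% higher; median -1.97). Against P56-NSC, 39 members rose and 0 fell in A-iSC (all tested genes: 31.5% higher and 31.3% lower; median 2.59), and against P0-NSC, 40 rose and 0 fell (32.6% higher and 34.7% lower; median 3.19). The rise of the 6 in A-iSC over either progenitor group was likewise set by the minimum. Without them, 33 of 34 rose in A-iSC against P56-NSC (median 2.67) and 34 of 34 against P0-NSC (median 3.27). Against AST, 30 of the 34 fell in P56-NSC (median -1.80) and 33 in P0-NSC (median -2.04). In P56-NSC against P0-NSC, 16 rose and 0 fell (all tested genes: 35.3% higher and 33.9% lower; median 0.31), and 24 were not called, among them the 6. Without AST 2 and A-iSC 3, members called lower numbered 33 in P56-NSC and 34 in P0-NSC against AST, and those called higher 39 in A-iSC against P56-NSC, 40 in A-iSC against P0-NSC and 20 in P56-NSC against P0-NSC. Leaving those libraries out also raised the calls over all 15747 tested genes in every comparison. In either direction, they went from 10895 to 12253 in P56-NSC against P0-NSC and from 9279 to 10329 in A-iSC against AST. Comparisons that share a group share its libraries, so their counts are not independent of one another.

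Markers of microglia and macrophages moved with part of this pattern. Their 20 markers, none at 0 in any group, summed to 6320, 5192 and 4627 FPKM in A-iSC, 1390, 1312 and 1420 FPKM in P56-NSC, 238 to 294 FPKM in P0-NSC and 442 to 547 FPKM in AST. In A-iSC against AST, 20 of 20 rose (all tested genes: 28.1% higher). In P56-NSC against AST, 15 of the 20 rose and 1 fell, and 31 interferon-stimulated genes fell (all tested genes: 37.1% higher and 37.0% lower). In P0-NSC against AST, 2 of the 20 rose and 13 fell (all tested genes: 35.9% higher and 38.3% lower). The part of these markers in the interferon-stimulated values was not tested. Markers of T, B and NK cells summed to 0.427 to 1.14 FPKM in A-iSC and at most 1.57 FPKM in any library, with Cd3e, Cd3d, Nkg7 and Ncr1 at 0 in A-iSC. In bulk libraries, more cells of a type and more RNA per cell cannot be told apart.

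The transcription factor members rose in A-iSC against AST to unequal degrees. Irf7, the transcription factor that amplifies type I interferon production (ENSMUSG00000025498, chr7:141262706-141266481, - strand), measured 79.7, 65 and 40.3 FPKM in A-iSC, 0.992, 0.264 and 2.09 FPKM in P56-NSC, 1.24, 0.528 and 1 FPKM in P0-NSC, and 5.92, 8.41 and 6.72 FPKM in AST. Each A-iSC library was above each AST library, each progenitor library was below both, and the progenitor groups overlapped. The log2 change of Irf7 was 2.92 ± 0.31, adjusted p = 7.08e-06 in A-iSC against AST, -2.0 ± 0.31 in P56-NSC against AST and -2.07 ± 0.31 in P0-NSC against AST (limma). Its change in A-iSC against AST was the largest of the 40 members on log2(FPKM + 1), a scale that understates low genes. As a ratio of group means it was 8.79, below that of several genes low in AST, such as Oas3 (52.7) and Oas2 (33.1). Stat2, the STAT specific to the type I complex, measured 23.8, 23.9 and 12.6 FPKM in A-iSC, 3.15, 2.92 and 3.45 FPKM in P56-NSC, 3.68, 4.1 and 3.38 FPKM in P0-NSC, and 6.82, 7.71 and 6.36 FPKM in AST. Its A-iSC libraries were uneven, A-iSC 3 well under the other two, yet did not overlap AST (log2 change 1.36 ± 0.19, adjusted p = 8.57e-05). Irf9, the DNA-binding partner in that complex, measured 14.3, 13.9 and 15.4 FPKM in A-iSC, 2.52, 2.3 and 3.08 FPKM in P56-NSC, 2.28, 1.96 and 2.08 FPKM in P0-NSC, and 12.5, 9.93 and 12.6 FPKM in AST. All A-iSC libraries exceeded all AST libraries by a narrow margin, with a log2 change of 0.30 ± 0.11, adjusted p = 0.0345, and that call was lost without A-iSC 1 (adjusted p = 0.0601), A-iSC 3 (0.0757) or AST 2 (0.134). Irf9 fell in P56-NSC by 1.80 and in P0-NSC by 2.02 on the log2 scale against AST, and Stat2 fell by 0.93 and 0.75, in the same order of groups.

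**Figure D3:**
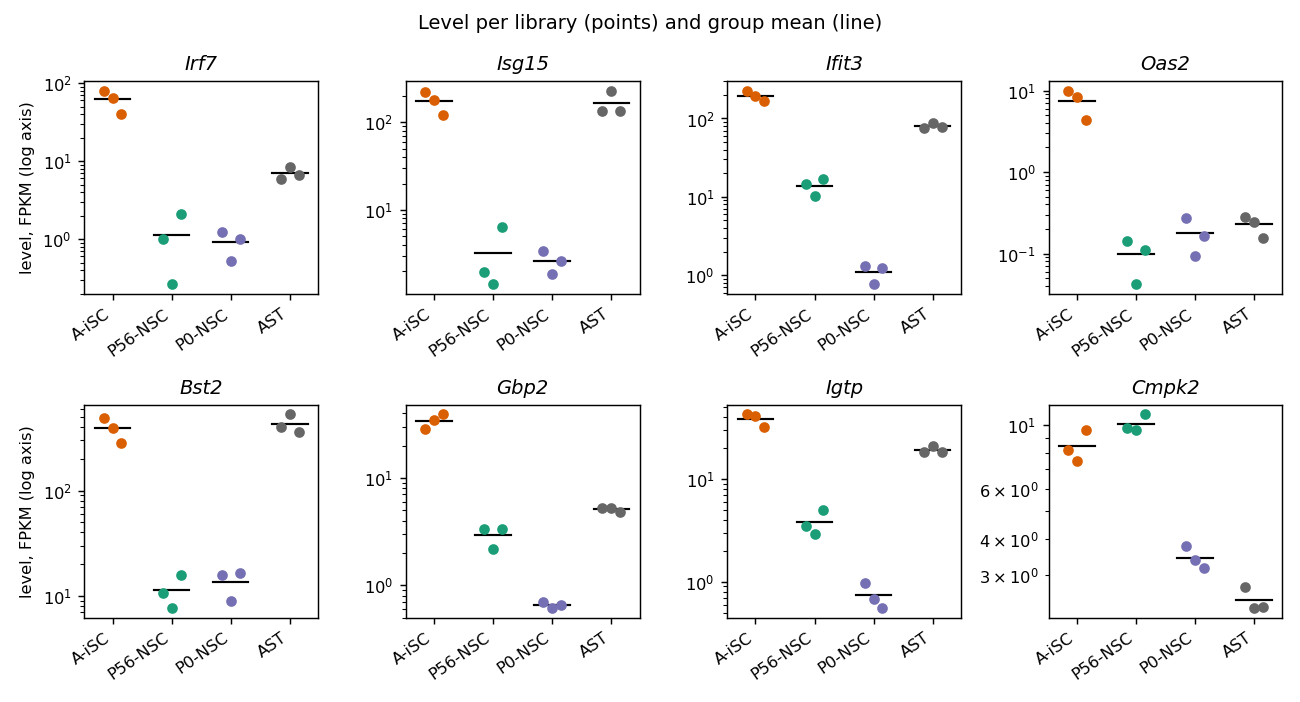
Level (FPKM, log axis, each panel with its own range) of 8 interferon-stimulated genes in each library (points, replicates 1 to 3 from left to right) and group mean (line). Irf7, Oas2 and Gbp2 stood well above AST in A-iSC, Isg15 and Bst2 overlapped between A-iSC and AST, and Cmpk2 was highest in P56-NSC, at 9.58 to 10.9 FPKM.

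The Ifit genes encode tetratricopeptide proteins that bind foreign RNA, and 4 of them lie within 99.3 kb on chromosome 19 (chr19:34550694-34650009). Ifit3 measured 226, 193 and 169 FPKM in A-iSC, 14.4, 10.4 and 16.8 FPKM in P56-NSC, 1.3, 0.768 and 1.23 FPKM in P0-NSC, and 75.4, 87.8 and 76.7 FPKM in AST. Ifit3b measured 56.1, 51 and 58.8 FPKM in A-iSC, 8.21, 5.83 and 8.95 FPKM in P56-NSC, 0.262, 0.0515 and 0.163 FPKM in P0-NSC, and 12.7, 10.5 and 11.8 FPKM in AST. For both, the 4 groups stood apart without overlap in the order A-iSC, AST, P56-NSC, P0-NSC. In A-iSC against AST the log2 change was 1.28 ± 0.17, adjusted p = 4.46e-05 for Ifit3 and 2.15 ± 0.14, adjusted p = 9.83e-08 for Ifit3b (limma). Of their transcripts' 50-base words, 51.2% of those of Ifit3 and 44.5% of those of Ifit3b occur in the other gene, so the split of reads between them is uncertain. Ifit1 measured 75.7, 60.8 and 56.6 FPKM in A-iSC, 1.32, 0.54 and 2.72 FPKM in P56-NSC, 0.411, 0.155 and 0.273 FPKM in P0-NSC, and 23.9, 23.9 and 23.3 FPKM in AST. Its AST libraries differed by less than 1 FPKM, and it rose in A-iSC by 1.39 ± 0.24 and fell in P0-NSC by 4.27 ± 0.24 on the log2 scale against AST. Ifit2 measured 37.9, 32.2 and 40.2 FPKM in A-iSC, 4.68, 4.87 and 5.77 FPKM in P56-NSC, 2.86, 2.65 and 2.9 FPKM in P0-NSC, and 13.5, 13 and 14.2 FPKM in AST. It kept the same order of groups over a narrower range, with log2 changes of 1.37 ± 0.10 in A-iSC, -1.26 ± 0.10 in P56-NSC and -1.94 ± 0.10 in P0-NSC, each against AST. In A-iSC against P0-NSC the 3 largest changes of the whole set were in this cluster, 6.55 ± 0.17 for Ifit3, 5.67 ± 0.24 for Ifit1 and 5.60 ± 0.14 for Ifit3b.

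Isg15 and Usp18, which act on one ubiquitin-like system, were the only type I-like members not called in A-iSC against AST. Isg15, the ubiquitin-like protein conjugated to targets in interferon-treated cells (ENSMUSG00000035692, chr4:156199455-156200796, - strand), measured 223, 179 and 120 FPKM in A-iSC, 1.97, 1.42 and 6.39 FPKM in P56-NSC, 3.42, 1.86 and 2.58 FPKM in P0-NSC, and 136, 229 and 133 FPKM in AST. The A-iSC and AST libraries overlapped fully, AST 2 being the highest and A-iSC 3 the lowest of the 6, while all progenitor libraries were at 6.39 FPKM or less. Its log2 change was 0.07 ± 0.38, adjusted p = 0.893 in A-iSC against AST, -5.43 ± 0.38, adjusted p = 7.78e-08 in P56-NSC against AST and -5.50 ± 0.38, adjusted p = 8.08e-08 in P0-NSC against AST (limma). Usp18, the protease that removes Isg15 and dampens the type I receptor, measured 22.5, 21 and 18.5 FPKM in A-iSC, 1.09, 0.313 and 1.59 FPKM in P56-NSC, 0.768, 0.357 and 0.299 FPKM in P0-NSC, and 16.4, 16.4 and 16.8 FPKM in AST. Every A-iSC library was above every AST library, but the difference was not called (log2 change 0.30 ± 0.21, adjusted p = 0.228). It was called at 0.51 when libraries were scaled by total reads (adjusted p = 0.0407), and the adjusted p under other settings ran from 0.0391 to 0.739. Usp18 fell by 3.19 in P56-NSC and by 3.58 in P0-NSC on the log2 scale against AST.

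The Oas genes encode oligoadenylate synthetases that respond to double-stranded RNA, and all 5 members of the family rose in A-iSC against AST. Oas2, Oas3 and Oasl1, however, had reached the minimum level in A-iSC alone, so they had to be higher there. Oas1a and Oasl2, which also reached it elsewhere, both rose, where 28.1% of all tested genes were called higher. Oas2 measured 9.95, 8.28 and 4.32 FPKM in A-iSC, 0.142, 0.042 and 0.109 FPKM in P56-NSC, 0.275, 0.0926 and 0.163 FPKM in P0-NSC, and 0.281, 0.244 and 0.157 FPKM in AST. It was low outside A-iSC, with at most 28 reads in any library of the other groups, and rose in A-iSC by 2.73 ± 0.20 on the log2 scale against AST (adjusted p = 3.42e-07, limma). Oas3 measured 4.96, 3.9 and 3.09 FPKM in A-iSC, 0.0489, 0 and 0.155 FPKM in P56-NSC, 0.0495, 0.0486 and 0.0205 FPKM in P0-NSC, and 0.0675, 0.0907 and 0.0686 FPKM in AST. Apart from A-iSC, with 586 to 707 reads, no library held more than 18 reads of Oas3, and its log2 change against AST was 2.20 ± 0.12. Oas1a measured 31.6, 21.4 and 20.2 FPKM in A-iSC, 0.244, 0.165 and 1.29 FPKM in P56-NSC, 0.696, 0.273 and 0.443 FPKM in P0-NSC, and 4.49, 4.84 and 3.86 FPKM in AST. This gene had intermediate AST levels that overlapped neither A-iSC nor the progenitors, and its log2 change was 2.21 ± 0.24 in A-iSC and -1.85 ± 0.24 in P56-NSC against AST. Its transcript shares 57.6% of its 50-base words with Oas1g, which measured 6.76 FPKM in A-iSC and 0.589 FPKM in AST, so reads of the pair cannot be separated with certainty. Oasl2, an oligoadenylate synthetase-like gene, measured 33.2, 30.4 and 25.9 FPKM in A-iSC, 0.75, 0.313 and 1.4 FPKM in P56-NSC, 0.576, 0.517 and 0.484 FPKM in P0-NSC, and 5.09, 5.11 and 5.25 FPKM in AST. AST libraries agreed closely and lay between the A-iSC and the progenitor libraries, with log2 changes of 2.32 ± 0.17 in A-iSC and -2.01 ± 0.17 in P0-NSC against AST. Oasl1, which shares a 41.0 kb stretch of chromosome 5 with Oasl2 and is known in mouse as a brake on Irf7 translation, measured 5.23, 4.92 and 3.29 FPKM in A-iSC, 0.11, 0.0717 and 0.512 FPKM in P56-NSC, 0.603, 0.277 and 0.237 FPKM in P0-NSC, and 0.663, 0.265 and 0.537 FPKM in AST. Only its A-iSC libraries stood apart (log2 change 1.87 ± 0.18 against AST), and the other 3 groups overlapped, although P56-NSC was called lower than AST without P56-NSC 3 (adjusted p = 0.0489).

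All 6 GTPase members, which act on pathogen-containing vacuoles inside cells, rose in A-iSC against AST. Without Iigp1, which reached the minimum level through A-iSC alone, the count was 5 of 5 with a median log2 change of 1.43, where 28.1% of all tested genes were called higher. Their summed level was 129, 127 and 124 FPKM in A-iSC, 10.6, 8.82 and 13.9 FPKM in P56-NSC, 4.11, 3.31 and 3.24 FPKM in P0-NSC, and 38.7, 44.4 and 39.1 FPKM in AST, with no overlap between any 2 groups. Gbp2, a guanylate-binding protein (ENSMUSG00000028270, chr3:142620602-142638008, + strand), measured 28.7, 34.9 and 39 FPKM in A-iSC, 3.32, 2.18 and 3.33 FPKM in P56-NSC, 0.695, 0.614 and 0.649 FPKM in P0-NSC, and 5.22, 5.21 and 4.79 FPKM in AST. The 4 groups stood apart from one another, and the log2 change was 2.52 ± 0.13, adjusted p = 2.17e-08 in A-iSC against AST (limma). Gbp3 measured 36.8, 32.2 and 31.2 FPKM in A-iSC, 1.29, 1.32 and 2.21 FPKM in P56-NSC, 1.43, 1.09 and 1.3 FPKM in P0-NSC, and 7.67, 8.93 and 7.95 FPKM in AST. It rose in A-iSC by 1.90 ± 0.13 and fell in P56-NSC by 1.83 and in P0-NSC by 2.01 on the log2 scale against AST, and the progenitor groups overlapped. Gbp7 measured 5.68, 5.69 and 7.93 FPKM in A-iSC, 1.47, 1.43 and 1.18 FPKM in P56-NSC, 0.763, 0.624 and 0.375 FPKM in P0-NSC, and 1.78, 1.6 and 1.81 FPKM in AST. Its A-iSC libraries stood apart (log2 change 1.43 ± 0.13 against AST), P0-NSC fell by 0.79 against AST, and P56-NSC lay just under AST without a call (adjusted p = 0.156). These 3 genes lie within 107.7 kb on chromosome 3 (chr3:142530342-142638008). Among the immunity-related GTPases, Igtp measured 42.4, 41.1 and 31.7 FPKM in A-iSC, 3.45, 2.9 and 4.98 FPKM in P56-NSC, 0.973, 0.679 and 0.557 FPKM in P0-NSC, and 18.2, 20.9 and 18.4 FPKM in AST. The groups did not overlap, and the log2 change was 0.96 ± 0.16 in A-iSC, -2.10 ± 0.16 in P56-NSC and -3.54 ± 0.16 in P0-NSC against AST. Irgm1, a regulator of the other Irg proteins, measured 11.9, 10.1 and 9.12 FPKM in A-iSC, 0.952, 0.911 and 1.3 FPKM in P56-NSC, 0.135, 0.189 and 0.269 FPKM in P0-NSC, and 5.52, 7.21 and 5.8 FPKM in AST. It had the smallest A-iSC change of the class (0.67 ± 0.12, adjusted p = 0.0006) and fell in P0-NSC by 2.58 against AST, again with no overlap of groups. Iigp1 measured 3.38, 3.03 and 5.05 FPKM in A-iSC, 0.148, 0.0856 and 0.886 FPKM in P56-NSC, 0.113, 0.112 and 0.0873 FPKM in P0-NSC, and 0.379, 0.5 and 0.361 FPKM in AST. It was low in all but A-iSC, where it rose by 1.75 ± 0.20 against AST. The P56-NSC group overlapped AST through P56-NSC 3, at 0.886 FPKM. Every P0-NSC library was below every AST library, but P0-NSC was not called lower in the reported fit (adjusted p = 0.121, limma). It was called without P56-NSC 3 (adjusted p = 0.0313) and with only the 2 groups compared in the fit (0.00107). With all libraries kept, it was also called at a pseudocount of 0.1 (0.0282), under quantile normalization (0.00345) and with voom (0.0244).

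**Figure D4:**
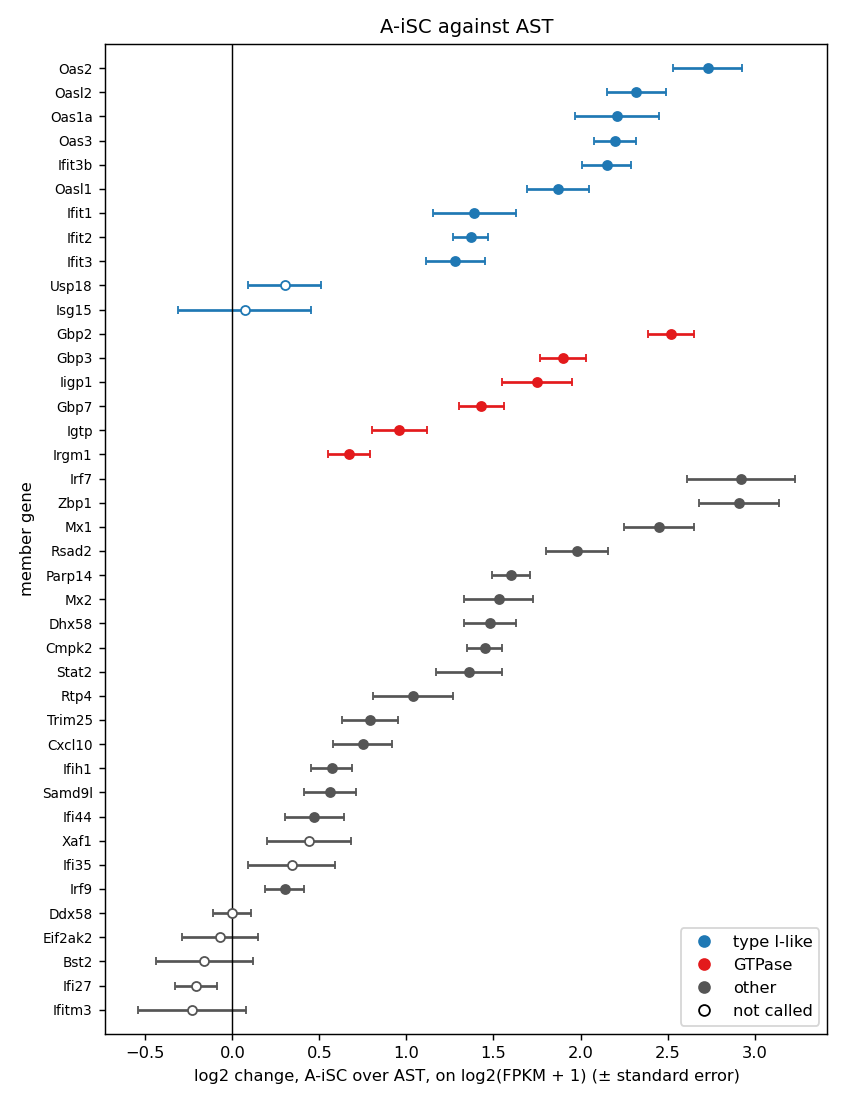
Log2 change of each of the 40 interferon-stimulated genes in A-iSC over AST on log2(FPKM + 1), with its standard error (bars), by family; filled points were called by limma at an adjusted p under 0.05 and open points were not. Changes ran from -0.23 (Ifitm3) to 2.92 (Irf7), and 31 of 40 were called, all higher in A-iSC.

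Several abundant antiviral membrane proteins were high in both A-iSC and AST and were not called apart between them. Bst2, or tetherin, which holds budding virus at the cell surface, measured 493, 391 and 286 FPKM in A-iSC, 10.6, 7.66 and 15.7 FPKM in P56-NSC, 15.7, 8.98 and 16.3 FPKM in P0-NSC, and 399, 531 and 365 FPKM in AST. A-iSC and AST overlapped (log2 change -0.16 ± 0.28, adjusted p = 0.656), and against AST the gene fell by 5.17 in P56-NSC and 4.91 in P0-NSC on the log2 scale. Ifitm3, which blocks fusion of virus with the cell, measured 648, 514 and 305 FPKM in A-iSC, 30, 25.8 and 45.3 FPKM in P56-NSC, 30.6, 18.3 and 24.7 FPKM in P0-NSC, and 464, 757 and 468 FPKM in AST. The A-iSC libraries alone spanned more than the difference of the group means (log2 change -0.23 ± 0.31, adjusted p = 0.547, limma), whereas all progenitor libraries were far below, with a log2 change of -4.02 in P56-NSC against AST. Ifi27, an interferon-induced membrane protein, measured 86.3, 101 and 100 FPKM in A-iSC, 47.2, 42.6 and 58.3 FPKM in P56-NSC, 5.36, 5.57 and 5.25 FPKM in P0-NSC, and 108, 125 and 101 FPKM in AST. P56-NSC lay between AST and P0-NSC without overlap, with a log2 change of 2.97 ± 0.12, adjusted p = 1.48e-09 in P56-NSC against P0-NSC. Of the other members not called in A-iSC against AST, Ddx58 (the RNA sensor RIG-I) averaged 12.5 ± 0.912 FPKM in A-iSC and 12.5 ± 1.54 FPKM in AST, and Eif2ak2 (the kinase PKR) 14.5 ± 5.18 FPKM in A-iSC and 14.8 ± 2.92 FPKM in AST (SD, n = 3). Ifi35 and Xaf1 had log2 changes of 0.34 ± 0.25 and 0.44 ± 0.24, and both were called higher in A-iSC when A-iSC 3 was left out (0.62 with adjusted p = 0.0255 and 0.74 with adjusted p = 0.00562). Of the exon bases of Ifi35, 16.8% lie opposite Gm11626, and the labels do not say whether reads were counted by strand.

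The remaining members were low or moderate in AST and rose in A-iSC. Zbp1, the sensor of Z-form nucleic acid that can start necroptosis, measured 17.7, 13 and 8.34 FPKM in A-iSC, 0.049, 0.0353 and 0.619 FPKM in P56-NSC, 0.0991, 0.0681 and 0.103 FPKM in P0-NSC, and 0.625, 0.95 and 0.809 FPKM in AST. Its A-iSC libraries stood far above all others (log2 change 2.91 ± 0.23, adjusted p = 5.06e-07, limma). Zbp1 reached the minimum level through A-iSC alone, however, so it had to be higher there. Its lower call in P56-NSC against AST (-0.57 ± 0.23, adjusted p = 0.0394) was lost without AST 2, AST 3, P56-NSC 1, P56-NSC 2 or any P0-NSC library (adjusted p of 0.0518 to 0.134), under the replicate block (0.0622) and with no minimum level (0.0905). Cxcl10, the chemokine that attracts activated T cells, measured 7.45, 5.72 and 4.02 FPKM in A-iSC, 0.537, 0.194 and 0.674 FPKM in P56-NSC, 0.272, 0.122 and 0.274 FPKM in P0-NSC, and 2.89, 3.11 and 2.73 FPKM in AST. The groups A-iSC and AST did not overlap, and the log2 change was 0.75 ± 0.17, adjusted p = 0.00277. Mx1 and Mx2, dynamin-like GTPases annotated as polymorphic pseudogenes in the gene annotation, rose in A-iSC by 2.45 ± 0.20 and 1.53 ± 0.20 against AST. The rise of Mx1 was also set by the minimum level, which it reached through A-iSC alone. Mx1 averaged 5.68 ± 2.22 FPKM in A-iSC, 0.215 ± 0.176 FPKM in P56-NSC, 0.111 ± 0.064 FPKM in P0-NSC and 0.175 ± 0.0619 FPKM in AST, and Mx2 4.93 ± 1.47 FPKM in A-iSC, 1.19 ± 0.432 FPKM in P56-NSC, 0.227 ± 0.145 FPKM in P0-NSC and 1.02 ± 0.262 FPKM in AST (SD, n = 3). The helicase genes moved unequally, since Dhx58 (LGP2) rose by 1.48 ± 0.15 and Ifih1 (MDA5) by 0.57 ± 0.12 while Ddx58 was not called. Parp14 rose by 1.60 ± 0.11, Rtp4 by 1.04 ± 0.23, the ubiquitin ligase Trim25 by 0.79 ± 0.16 and Samd9l by 0.56 ± 0.15. Ifi44 rose by 0.47 ± 0.17 (adjusted p = 0.0284) although A-iSC 2, at 2.66 FPKM, lay within the AST range of 2.36 to 2.71 FPKM, and the call was lost when any 1 AST library, A-iSC 1 or A-iSC 3 was left out (adjusted p of 0.0501 to 0.105).

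Rsad2 and Cmpk2 are neighbours within 37.1 kb on chromosome 12 (chr12:26442746-26479837) and departed from each other. Rsad2, or viperin, an antiviral enzyme, measured 7.62, 5.72 and 10.3 FPKM in A-iSC, 0.904, 0.704 and 1.06 FPKM in P56-NSC, 0.615, 0.269 and 0.578 FPKM in P0-NSC, and 1.49, 0.842 and 1.32 FPKM in AST. Its A-iSC libraries stood far above the rest (log2 change 1.98 ± 0.18, adjusted p = 2.06e-06, limma), and its lower call in P0-NSC against AST (-0.57 ± 0.18) was lost without AST 1 (adjusted p = 0.0544) or P0-NSC 2 (0.0603). Cmpk2, a mitochondrial nucleotide kinase, measured 8.21, 7.51 and 9.61 FPKM in A-iSC, 9.8, 9.58 and 10.9 FPKM in P56-NSC, 3.79, 3.37 and 3.17 FPKM in P0-NSC, and 2.72, 2.3 and 2.32 FPKM in AST. It was the 1 member highest in P56-NSC, where Rsad2 was near 1 FPKM, and the 1 member called higher than AST in either progenitor group. The log2 change of Cmpk2 was 1.45 ± 0.10, adjusted p = 2.34e-07 in A-iSC, 1.69 ± 0.10, adjusted p = 2.1e-08 in P56-NSC and 0.37 ± 0.10, adjusted p = 0.00681 in P0-NSC, each against AST (limma). A-iSC and P56-NSC overlapped and were not called apart (-0.24 ± 0.10, adjusted p = 0.0649). However, A-iSC was called lower without A-iSC 3 (-0.32, adjusted p = 0.0106) and higher when libraries were scaled by total reads (0.26, adjusted p = 0.0492). Its rise in P0-NSC was not called under quantile normalization (0.22, adjusted p = 0.0629).

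Between the progenitor preparations, all 4 Ifit genes and 4 of 6 GTPase genes rose in P56-NSC against P0-NSC, where 35.3% of all tested genes were called higher, while none of Isg15, Usp18 and the 5 Oas genes was called. Without P56-NSC 2, Usp18 (0.67, adjusted p = 0.0023) and Oasl2 (0.43, adjusted p = 0.0212) were. Oas2, Oas3 and Oasl1 reached the minimum level through A-iSC alone and were at 0.603 FPKM or less in every progenitor library. At such levels log2(FPKM + 1) leaves little room for a call, so these 3 genes show no difference between the families. The log2 change was 2.89 ± 0.14, adjusted p = 4.53e-09 for Ifit3b and 2.81 ± 0.17, adjusted p = 3.29e-08 for Ifit3, next to that of Ifi27 the largest of the set (limma). Ifit1 rose by 0.89 ± 0.24, or 0.57 without P56-NSC 3, and Ifit2 by 0.68 ± 0.10. Igtp rose by 1.44 ± 0.16, Gbp2 by 1.24 ± 0.13, Irgm1 by 0.77 ± 0.12 and Gbp7 by 0.58 ± 0.13. Among the others, Xaf1 rose by 1.43 ± 0.24, Cmpk2 by 1.32 ± 0.10, Mx2 by 0.82 ± 0.20, Ifih1 by 0.58 ± 0.12 and Ddx58 by 0.44 ± 0.11. The call of Eif2ak2 (0.69) was lost without P56-NSC 3 (adjusted p = 0.0612) or P0-NSC 3 (0.0626), and that of Samd9l (0.38) without P56-NSC 3, A-iSC 2, AST 1, AST 3 or any P0-NSC library (0.0517 to 0.164). Rtp4 was called higher without AST 2, P56-NSC 2 or P0-NSC 1 (adjusted p of 0.0107 to 0.0437), Parp14 without AST 2 (0.0122) and Rsad2 without A-iSC 3 (0.0493). Mitochondrial genes took 16.54% to 17.63% of the reads in P56-NSC and 2.94% to 7.03% in the other libraries, and scaling by total reads moved the median of all genes in this comparison to -0.449. Of all 15747 tested genes, 11828 were called in either direction on that scale and 10895 in the reported fit. Among members, 11 were called higher on it and 2, Bst2 and Stat2, lower. The calls lost on it were those of Ifit2 (0.18, adjusted p = 0.126), Gbp7 (0.27, 0.0958), Ddx58 (0.11, 0.436), Eif2ak2 (0.24, 0.358) and Samd9l (0.19, 0.223), which leaves 3 of 4 Ifit and 3 of 6 GTPase genes. That scaling also moved the median of all genes to 0.125 in A-iSC against AST, -0.243 in P56-NSC against AST, 0.159 in P0-NSC against AST and 0.436 in A-iSC against P56-NSC, with 33, 1, 1 and 40 members called higher and 0, 32, 34 and 0 lower. In the same order, 9194, 11907, 11576 and 11804 of all 15747 tested genes were called in either direction. Red blood cell genes summed to 360 to 565 FPKM in P56-NSC and 163 to 338 FPKM in P0-NSC.

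Within each progenitor group, 1 library led most members. P56-NSC 3 was the highest of its group for 37 of 40 members, against 35.1% of all tested genes, and P0-NSC 1 for 33 of 40, against 27.8%. The size of this spread differed by member. It was wide for Isg15, at 6.39 FPKM in P56-NSC 3 beside 1.97 and 1.42 FPKM in the other P56-NSC libraries. It was narrow for Ifit2, at 5.77 beside 4.68 and 4.87 FPKM, and for Irf9, at 3.08 beside 2.52 and 2.3 FPKM. The microglia markers summed to 1390, 1312 and 1420 FPKM in P56-NSC 1, 2 and 3, and their part in this spread was not tested. In A-iSC, A-iSC 1 led for 24 of 40 members, against 32.7% of all tested genes, and A-iSC 3 for 13 of 40, against 43.1%. Median gene length was 3028 bases for the 24 and 5386 bases for the 13. In AST, AST 2 led for 20 of 40 members, against 41.9% of all tested genes, with a median length of 2758 bases for the 20. Short genes stood higher in A-iSC 1 and AST 2 and long genes in A-iSC 3 across all tested genes as well, and the part of gene length in the members' spread was not tested.

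**Figure D5:**
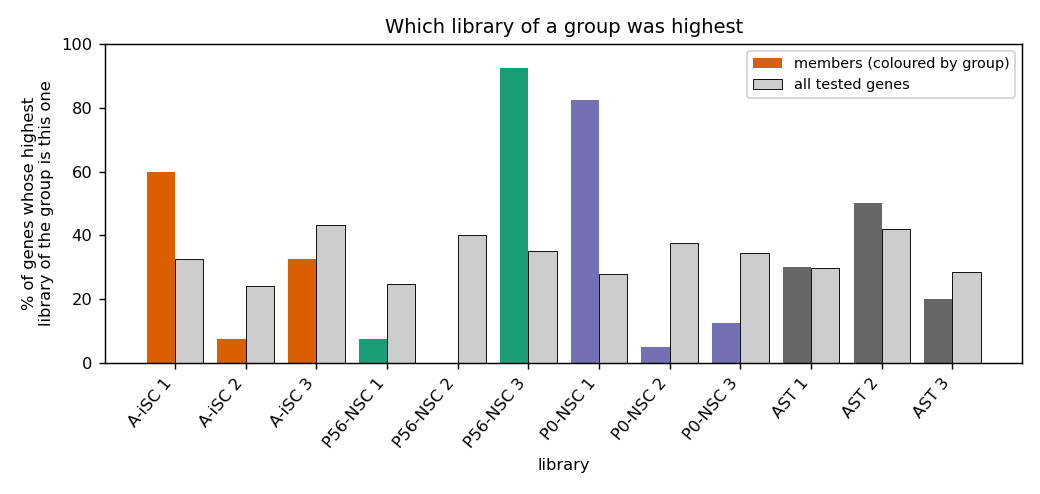
Share (%) of the 40 interferon-stimulated genes (coloured) and of all 15747 tested genes (grey) whose highest level within a group fell in the library named on the axis. P56-NSC 3 led for 37 of 40 members and P0-NSC 1 for 33 of 40, against 35.1% and 27.8% of all tested genes.

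The ligands of the pathway were at or near 0 in all libraries. Of 21 interferon genes, 14 had no read in any of the 12 libraries, and all 21 together had 17 reads in A-iSC, 2 in P56-NSC, 8 in P0-NSC and 7 in AST. Ifnb1 had 3, 1 and 1 reads in A-iSC, 1 read in AST 2 and 0 elsewhere, and Ifng had 0 reads in each A-iSC library. A count of 0 allows up to 3 reads, which for Ifng is 0.0796 to 0.144 FPKM depending on the library and covers counting error only. Of 6 receptor genes, 5 were tested and all 5 rose in A-iSC against AST by a median of 0.45 on the log2 scale, beside 28.1% of all tested genes called higher and 30.8% lower. Ifnlr1, the other chain of the interferon lambda receptor, had at most 9 reads in any library and was not tested. Il10rb, a chain shared by the interferon lambda and interleukin-10 receptors, averaged 12.9 FPKM in A-iSC and 5.28 FPKM in AST (log2 change 1.13 ± 0.19, adjusted p = 0.000294, limma), Ifnar2 13.2 FPKM in A-iSC and 8.94 FPKM in AST and Ifngr1 24.3 FPKM in A-iSC and 17.5 FPKM in AST. Against P0-NSC, 3 of the 5 rose in A-iSC, Il10rb by 2.65, Ifngr1 by 1.67 and Ifnar2 by 1.44 (all tested genes: 32.6% higher and 34.7% lower). The partner chains Ifnar1 (0.14 ± 0.08, adjusted p = 0.124) and Ifngr2 (-0.11 ± 0.10, adjusted p = 0.358) were not called (limma).

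Of 11 JAK-STAT genes, 8 rose and 1 fell in A-iSC against AST. Over all tested genes, 28.1% were higher and 30.8% lower in that comparison, which also applies to the counts that follow. Ptpn6, the phosphatase SHP-1, rose by 2.63 ± 0.19, adjusted p = 2.89e-07, the feedback inhibitor Socs3 by 1.2, the kinase Tyk2 by 0.90 and Stat3 by 0.84 (limma). The 1 that fell, named after its value was seen, was Ptpn11 (-0.80). Of 5 other IRF genes, 3 rose and 0 fell in A-iSC against AST, led by Irf8 (17.9 FPKM in A-iSC and 1.29 FPKM in AST, log2 change 3.04) and Irf5 (2.39), both known from macrophages and microglia. Among 14 tested nucleic acid sensors and adaptors, 11 rose and 1 fell, or 10 and 1 of 13 without Ikbke, which reached the minimum level through A-iSC alone. Those that rose most were Unc93b1 (3.08), which carries endosomal Toll-like receptors, Tlr7 (2.83), Ifi204 (2.46) and the inflammasome sensor Aim2 (2.28). In P56-NSC against AST, 5 of the 14 rose, among them Unc93b1 (1.86) and Tlr7 (1.60), and 6 fell, among them Ifi204 (-1.82), numbers close to the 37.1% higher and 37.0% lower of all tested genes. In P0-NSC against AST, 2 rose and 8 fell (all tested genes: 35.9% higher and 38.3% lower), with Tlr3 at -2.75 and the adaptor Mavs at -2.35.

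Interferon-induced genes outside the 40 members were counted in the same way. Of 45 tested, 9 reached the minimum level through A-iSC alone. Of the other 36, 25 rose and 4 fell in A-iSC against AST (all tested genes: 28.1% higher and 30.8% lower), 2 rose and 29 fell in P56-NSC against AST (37.1% and 37.0%). In turn, 2 rose and 31 fell in P0-NSC against AST (35.9% and 38.3%). With the 9, the counts in A-iSC against AST were 34 higher and 4 lower of 45. The chemokine Ccl5 averaged 87.2 FPKM in A-iSC and 5.83 FPKM in AST (log2 change 3.57 ± 0.32, adjusted p = 1.7e-06, limma), Ly6e 99.8 FPKM in A-iSC and 8.7 FPKM in AST (3.35), Phf11b 18.1 FPKM in A-iSC and 1.01 FPKM in AST (3.20) and Ifi27l2a 120 FPKM in A-iSC and 17.4 FPKM in AST (2.74). The 4 that fell, named after their values were seen, were Apol9a (-1.04), Apol9b (-1.04), Plscr1 (-0.93) and Pml (-0.52). Ifitm2, a relative of Ifitm3, fell in P56-NSC by 4.26 against AST, and Apol9b and B2m, the light chain of MHC class I, fell in P0-NSC by 3.61 and 3.52 against AST. Of 6 tested GTPases outside the members, Gbp5, Gbp6, Gm12250 and Gm4951 reached the minimum level through A-iSC alone, and the other 2, Irgm2 (1.38) and Gbp9 (0.98), rose in A-iSC against AST. Genes that limit the response or remove nucleic acid were mixed, and of 8 that reached the minimum level outside A-iSC as well, 1 rose and 4 fell in A-iSC against AST. The 1 that rose was the RNA-editing enzyme Adar (0.63), Nlrc3 (1.06) reached the minimum level through A-iSC alone, and Rnaseh2c (-0.55) and Otud4 (-0.48) were among the lower. Trex1 was listed at 0 in all libraries.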

How the data were processed

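RNA was sequenced from 12 libraries prepared with a NEBNext Ultra kit from 3 μg of total RNA each, per the labels' protocols. The authors deposited FPKM per gene; Bowtie 0.12.2, mm8 and mm9 appear in the submitters' processing notes, whereas 99.54% of gene coordinates shared with GENCODE M21 were those of GRCm38, which is used here. FPKM times gene length gave whole reads for 100.0% of values (within 0.01), and the depth implied by the deposited FPKM was 0.7439 to 1.2183 times the recovered total.

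Genes at 1 FPKM or more in 3 libraries (15747) were fitted on log2(FPKM + 1) with limma 3.58.1 (trended eBayes, R 4.3.3), 4 groups together, with Benjamini-Hochberg adjustment per comparison; the fit was tested on simulated data. Members and lists were chosen with earlier results of these data known. Library values are given for the Ifit, Oas, GTPase, Irf7, Irf9, Stat2, Isg15, Usp18, Cxcl10, Ifitm3 and Bst2 genes and the 3 largest changes per comparison; from each other list and comparison, at most 4 of the called genes of largest change, beside those said to be named after their values were seen or for a detail of the minimum level. Promoter sequence is from RefSeq. Alternatives covered the pseudocount, level minimum, scaling, voom on recovered reads, the groups in the fit, the replicate block, the trend and each library left out. Unnamed entries held at most 0.1564% of reads.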

Additional observations from a re-analysis of the deposited data

How the results depend on the processing

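Over the settings tried, members called higher numbered 25 to 33 in A-iSC against AST (31 as reported), 33 to 40 in A-iSC against P56-NSC (39), 34 to 40 in A-iSC against P0-NSC (40) and 11 to 20 in P56-NSC against P0-NSC (16), and members called lower numbered 30 to 35 in P56-NSC against AST (31) and 33 to 36 in P0-NSC against AST (34). The lowest counts for A-iSC came with a minimum of 1 FPKM in 6 libraries, which tests 34 members. With AST 2 and A-iSC 3 left out, A-iSC had 1 member called lower than AST and 1 called lower than P56-NSC, where 0 are reported for each. With each library left out in turn, members called lower in A-iSC against P56-NSC ranged from 0 to 1. Scaled by total reads, 2 members were called lower in P56-NSC against P0-NSC (0 as reported), and the log2 change of Cmpk2 in A-iSC against P56-NSC was 0.26, where -0.24 is reported. Under quantile normalization 0 members were called higher in P0-NSC against AST (1 as reported). With AST 2, A-iSC 1 and A-iSC 2 left out, Cxcl10 (adjusted p = 0.108) and Samd9l (0.19) were not called in A-iSC against AST. The cause of these changes was not tested.

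The replicate block gave 31 members higher in A-iSC against AST and 18 in P56-NSC against P0-NSC, and kept 237 of 240 member results on the same side of the threshold. Same-numbered libraries deviated together, with a correlation over 0.1, in 3 of 18 pairs (range -0.395 to 0.442). Between A-iSC and AST, the pairs numbered 2 and 3 did so (0.342 and 0.442) and the pair numbered 1 did not (-0.395). With so few libraries, whose deviations also went with gene length, this check cannot decide whether the numbers mark a shared culture or day. The comparison of protein sequences between family members was not run. Members had 50.2 reads per library at the median in P0-NSC and 87.2 in P56-NSC, so low levels there are imprecise.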
